A study of Rattus norvegicus with 11 samples.

Results

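Corticosteroid receptors, the enzymes that set the local supply of their hormones and a set of genes they switch on were followed in the renal cortex of 4 groups of rats. The 9 genes were chosen by name and their probes were found through the RefSeq transcript that the array files give for each probe. This gave 11 of 30367 non-control probes, with 2 probes each for Nr3c1 and Nr3c2 and 1 probe for each of the other genes. All 11 probes were well above background on all 11 arrays and none was saturated, so all were among the 28489 probes tested.

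The rat's main glucocorticoid, corticosterone, acts through the glucocorticoid receptor (Nr3c1) and the mineralocorticoid receptor (Nr3c2), and aldosterone acts through the mineralocorticoid receptor. Both receptors are held by chaperones in the cytoplasm until hormone binds, then bind the same DNA element in the nucleus. In the kidney, the enzyme made by Hsd11b2 inactivates corticosterone in cells of the distal nephron and collecting duct, which leaves the mineralocorticoid receptor there to aldosterone. The enzyme made by Hsd11b1 regenerates active corticosterone and is known in the proximal tubule of the rat.

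The DM+RYGB group (2 arrays) held SD rats made diabetic with STZ (streptozotocin, a toxin of insulin-producing beta cells, as a model of type 1 diabetes) that then had RYGB (Roux-en-Y gastric bypass). The DM+Sham group (3 arrays) held rats made diabetic the same way and given a sham operation. The Control+RYGB group (3 arrays) held SD rats without diabetes that had the bypass, and the Control+Sham group (3 arrays) held SD rats without diabetes that had the sham operation. Surgery came 4 weeks after induction and the cortex was taken 4 weeks after surgery. The sources used here give neither insulin treatment, feeding, sex nor age, and nothing says whether arrays of a group came from separate animals. The p-values therefore measure only the spread between these samples.

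Each array had 1 colour, and a value here is the log2 processed signal minus the 75th percentile of that array. The 75th percentile lay between 1541 and 4454 intensity units, and 77.69% to 93.5% of probes were well above background. DM+Sham 2 and 3 differed by a spread of 0.0206 (log2, over repeated spots) and Control+RYGB 2 and 3 by 0.053, both less than the noise of repeated spots within an array, so each pair was averaged and counted as 1 sample. This left 2 samples in each of DM+RYGB, DM+Sham and Control+RYGB and 3 in Control+Sham. The scans took place on 5 days. Control+RYGB and Control+Sham arrays never shared a day, and all Control+RYGB arrays, and no others, sat at position 2 of their slide, so for that group position and group cannot be told apart.

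The choice of scaling mattered for the RYGB comparisons. With the 75th percentile subtracted, the median of all probes differed by 0.55 between DM+RYGB and DM+Sham, by 0.29 between Control+RYGB and Control+Sham, by 0.27 between DM+RYGB and Control+RYGB and by 0.03 between DM+Sham and Control+Sham. With median scaling these were -0.05, -0.03, -0.09 and -0.04. A probe was therefore called only where limma's adjusted p was under 0.05 in the same direction with 75th percentile, median and quantile scaling. Fold changes, SE, 95% intervals and adjusted p-values below are from 75th percentile scaling unless another is named.

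In DM+Sham against Control+Sham, 2 of the 11 probes were called higher and 0 lower by limma, beside 6.23% and 6.51% of all probes tested. At an unadjusted p under 0.05, 5 were higher and 1 lower, beside 9340 of all 28489 probes in either direction. For DM+RYGB against DM+Sham, 2 were higher and 2 lower, beside 10.2% and 10.8% of all probes (unadjusted, 7 higher and 2 lower, beside 17305 probes). In Control+RYGB against Control+Sham, 1 was higher and 0 lower, beside 6.74% and 5.38% (unadjusted, 5 higher and 0 lower, beside 12392 probes). For DM+RYGB against Control+RYGB, 2 were higher and 2 lower, beside 7.57% and 9.81% (unadjusted, 4 higher and 2 lower, beside 12311 probes). In the interaction, which asks whether the effect of RYGB differed with diabetes, 1 was higher and 2 lower, beside 6.52% and 8.27% (unadjusted, 2 higher and 3 lower, beside 10423 probes). Since 1 probe of 11 is 9.09%, these counts say little about the genes as a set, and the genes are described singly. With the 75th percentile, 8 to 11 of the 11 probes had no overlap of arrays between the 2 groups of a comparison. The share over all probes is not given here, so a lack of overlap does not by itself set a probe apart.

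**Figure D1:**
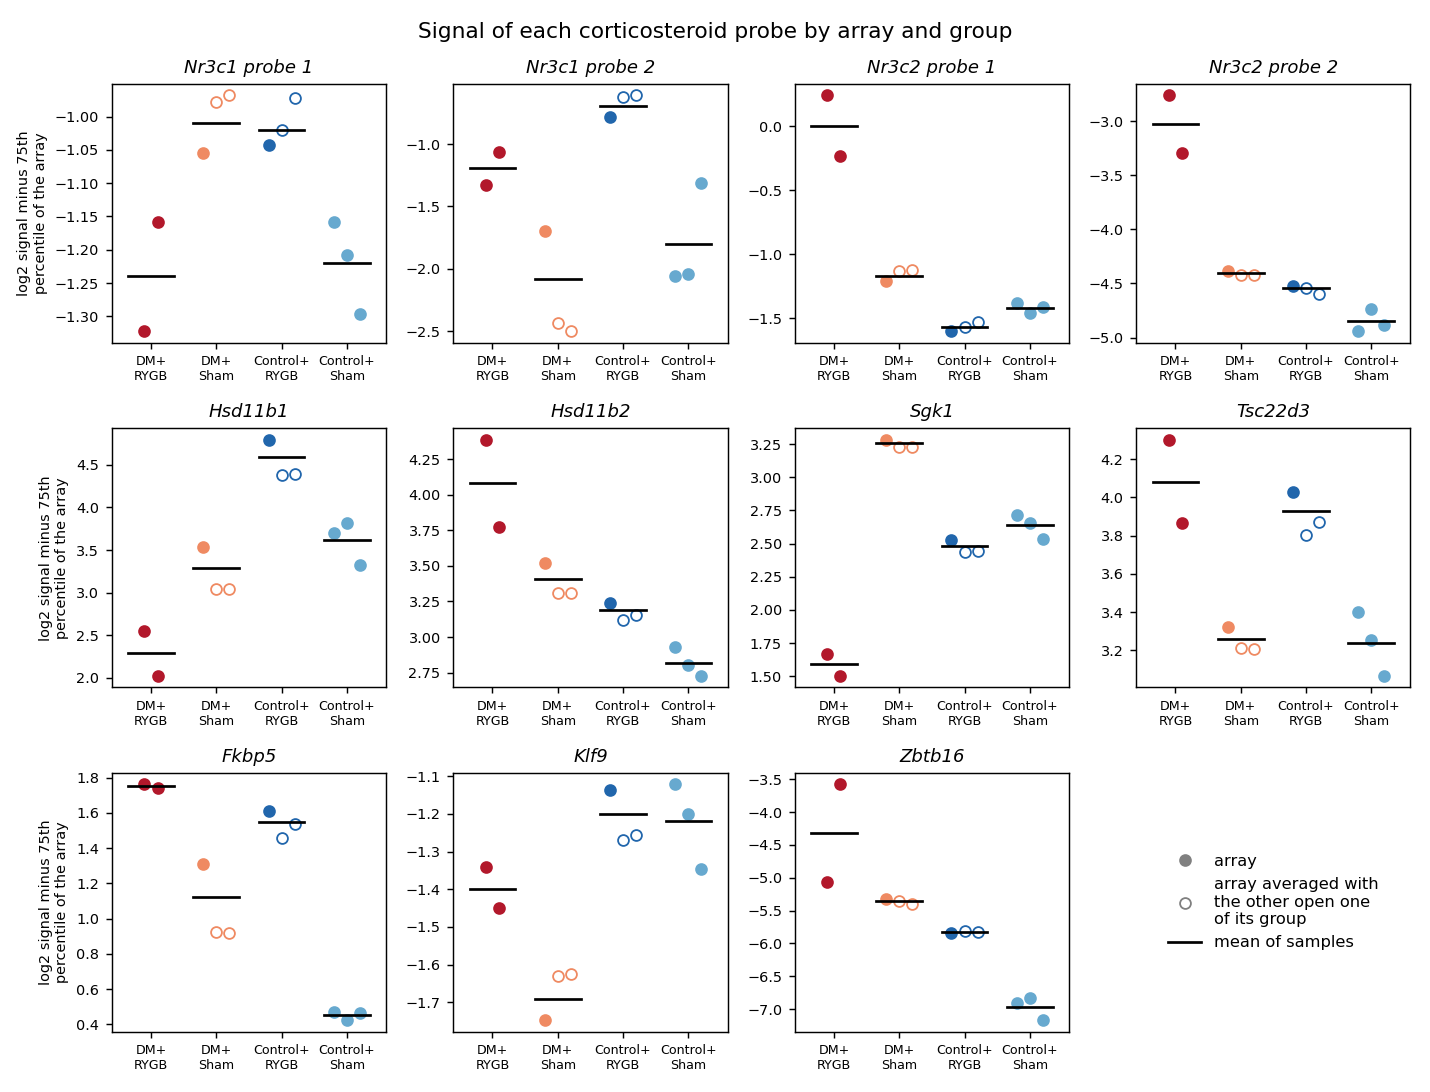
Log2 signal minus the array's 75th percentile (vertical axes, a separate range in each panel) for the 11 probes on every array, by group. Points are arrays, open points are the arrays averaged as 1 sample and bars are group means. Both Nr3c2 probes are highest on the 2 DM+RYGB arrays, where Sgk1 and Hsd11b1 are lowest, and Fkbp5 is lowest on the 3 Control+Sham arrays.

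The mineralocorticoid receptor gene was higher after RYGB in diabetic rats, on both of its probes. Nr3c2 probe 1 (A_43_P15261) read 0.24 and -0.23 on the DM+RYGB arrays, -1.21, -1.13 and -1.12 on the DM+Sham arrays, -1.60, -1.57 and -1.53 on the Control+RYGB arrays and -1.38, -1.46 and -1.41 on the Control+Sham arrays. Nr3c2 probe 2 (A_64_P014537), a dimmer probe, read -2.76 and -3.29 in DM+RYGB, -4.39, -4.42 and -4.42 in DM+Sham, -4.52, -4.54 and -4.59 in Control+RYGB and -4.94, -4.73 and -4.88 in Control+Sham. On both probes the 2 DM+RYGB arrays stood above the other 9, and the other groups lay close together.

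Nr3c2 rose in DM+RYGB against DM+Sham by 1.17 on probe 1 (2.26-fold, SE 0.16, adjusted p = 0.0022) and by 1.37 on probe 2 (2.59-fold, SE 0.18, adjusted p = 0.0019). With median scaling the differences were 0.57 and 0.77 (adjusted p = 0.031 and 0.013). Against Control+RYGB it rose by 1.58 (SE 0.16) and 1.52 (SE 0.18), with adjusted p = 0.0010 and 0.0018. Within the single scan days that held both groups, probe 1 differed by 1.37 against DM+Sham, and by 1.84 and 1.32 against Control+RYGB. Between DM+Sham and Control+Sham the probes differed by 0.25 (95% interval -0.10 to 0.60) and 0.45 (0.06 to 0.85), and neither was called. DM+RYGB had the highest mean and DM+Sham the next on both probes under all 3 scalings. Control+RYGB lay below Control+Sham on probe 1 with the 75th percentile and above it on probe 2, and below it on both probes with median and quantile scaling. The call against DM+Sham was lost on both probes with normexp background correction, with scan day as a block and in a fit of only the 2 groups. Leaving out 1 sample at a time, probe 1 kept the call in 2 of 9 fits (0.94 to 1.41), when Control+Sham 3 or DM+RYGB 2 was left out. Probe 2 kept it in 6 of 9 (1.11 to 1.64) and lost it without either DM+Sham sample or without DM+RYGB 1. Against Control+RYGB both probes kept the call in all 9 such fits, and it was lost with normexp on probe 1 and in a fit of only the 2 groups on probe 2.

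The interaction was 1.33 for Nr3c2 probe 1 (SE 0.22, adjusted p = 0.0081). That call was lost with normexp (1.09), with scan day as a block (1.28) and in 5 of the 9 fits without 1 sample (1.09 to 1.57 over the 9), those without Control+Sham 1, Control+Sham 2, DM+Sham 1 or either Control+RYGB sample. For probe 2 it was 1.07 (SE 0.25, adjusted p = 0.025) and was not called, since with median and quantile scaling the adjusted p was 0.065 for both. The effect of RYGB in rats without diabetes was -0.16 on probe 1 (95% interval -0.51 to 0.20) and 0.31 on probe 2 (-0.09 to 0.70).

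Markers of several kidney cell types were read beside Nr3c2, among them those of the tubule segments in which the mineralocorticoid receptor is known to act. Of 14358 named genes, 7.07% were called higher and 14.1% lower in DM+RYGB against DM+Sham, and 7.62% higher and 13.0% lower against Control+RYGB. Of 5 measured distal convoluted tubule markers, 3 rose in DM+RYGB against DM+Sham and 4 against Control+RYGB, and their summed level (log2) was 3.92 to 4.55 in DM+RYGB, 2.98 to 3.16 in DM+Sham, 2.81 to 2.85 in Control+RYGB and 2.35 to 2.62 in Control+Sham. Of 9 collecting duct principal cell markers, 0 were called in DM+RYGB against DM+Sham by limma with all scalings, and 5 rose against Control+RYGB. Their summed level was 6.21 to 6.75 in DM+RYGB, 5.87 to 6.32 in DM+Sham, 5.78 to 5.87 in Control+RYGB and 5.46 to 5.99 in Control+Sham. Podocyte markers, of the filtering unit and not of these segments, rose as well: 3 of 6 in DM+RYGB against DM+Sham and 4 of 6 against Control+RYGB, with a summed level of 4.75 to 5.25 in DM+RYGB, 3.70 to 3.77 in DM+Sham, 3.76 to 3.79 in Control+RYGB and 3.53 to 3.63 in Control+Sham. More cells of a type and more RNA per cell cannot be told apart in tissue arrays, and the part of these markers in the Nr3c2 result was not tested.

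The glucocorticoid receptor gene gave no call in any comparison. Nr3c1 probe 1 (A_64_P269447) read -1.32 and -1.16 in DM+RYGB, -1.06, -0.98 and -0.97 in DM+Sham, -1.04, -1.02 and -0.97 in Control+RYGB and -1.16, -1.21 and -1.30 in Control+Sham. Nr3c1 probe 2 (A_44_P1003794) read -1.33 and -1.06 in DM+RYGB, -1.69, -2.44 and -2.50 in DM+Sham, -0.78, -0.62 and -0.61 in Control+RYGB and -2.06, -2.04 and -1.32 in Control+Sham. The probes disagreed: in DM+RYGB against DM+Sham probe 1 differed by -0.23 (95% interval -0.49 to 0.04) and probe 2 by 0.89 (0.09 to 1.69). Probe 2 was 1.11 higher in Control+RYGB than in Control+Sham with the 75th percentile (SE 0.31, adjusted p = 0.040), but not with median or quantile scaling (adjusted p = 0.069 and 0.067). No direction is given for the gene.

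The gene of the hormone-regenerating enzyme, Hsd11b1, fell in the diabetic rats after RYGB. Its probe read 2.55 and 2.03 in DM+RYGB, 3.54, 3.05 and 3.05 in DM+Sham, 4.79, 4.39 and 4.39 in Control+RYGB and 3.70, 3.82 and 3.32 in Control+Sham. The DM+RYGB arrays were the lowest and the Control+RYGB arrays the highest, with no overlap, while DM+Sham and Control+Sham overlapped.

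Hsd11b1 differed by -1.01 in DM+RYGB against DM+Sham (2.01-fold lower, SE 0.28, adjusted p = 0.023) and by -2.30 against Control+RYGB (4.93-fold lower, SE 0.28, adjusted p = 0.0018). Between DM+Sham and Control+Sham it differed by -0.32 (95% interval -0.93 to 0.29). It was 0.98 higher in Control+RYGB than in Control+Sham (SE 0.26, adjusted p = 0.035), which was not called because median and quantile scaling gave 0.66 and 0.40 (adjusted p = 0.086 and 0.15). The interaction was -1.98 (SE 0.38, adjusted p = 0.013): RYGB went with a lower level in diabetic rats, and with a level that was higher in rats without diabetes by an amount that was not called. Within scan days, the difference was -0.50 between DM+RYGB and DM+Sham, and -2.25 and -2.36 between DM+RYGB and Control+RYGB. The call against DM+Sham was lost without DM+Sham 1 (-0.76) and without DM+RYGB 2 (-0.75), and in a fit of only the 2 groups; the interaction lost its call without Control+RYGB 1 (-1.78).

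Proximal tubule markers were read beside Hsd11b1. Of 10 measured markers, 0 were higher and 5 lower in DM+RYGB against DM+Sham, beside 7.07% and 14.1% of named genes. Against Control+RYGB, 0 were higher and 7 lower, beside 7.62% and 13.0%. The receptor for filtered proteins Cubn differed by -2.35 (SE 0.18), the water channel Aqp1 by -1.55 (SE 0.12) and the glucose transporter Slc5a2 by -1.48 (SE 0.22) in DM+RYGB against DM+Sham. The summed level of the list did not fall as these did: it was 7.12 to 7.96 in DM+RYGB, 7.48 to 7.87 in DM+Sham, 8.23 to 8.67 in Control+RYGB and 7.19 to 7.75 in Control+Sham. The part of these markers in the Hsd11b1 result was not tested.

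The gene of the inactivating enzyme, Hsd11b2, was not called in any comparison, although its groups kept apart with the 75th percentile. It read 4.39 and 3.77 in DM+RYGB, 3.52, 3.31 and 3.31 in DM+Sham, 3.24, 3.12 and 3.15 in Control+RYGB and 2.93, 2.80 and 2.73 in Control+Sham. These arrays do not overlap between groups, and the order from high to low was DM+RYGB, DM+Sham, Control+RYGB, Control+Sham. Hsd11b2 differed by 0.67 in DM+RYGB against DM+Sham (SE 0.21, adjusted p = 0.034), but by 0.06 with median scaling (adjusted p = 0.81). Against Control+RYGB the DM+RYGB samples differed by 0.89 (adjusted p = 0.019) and with median scaling by 0.53 (adjusted p = 0.095). Between DM+Sham and Control+Sham it differed by 0.59 (95% interval 0.14 to 1.05, adjusted p = 0.078).

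**Figure D2:**
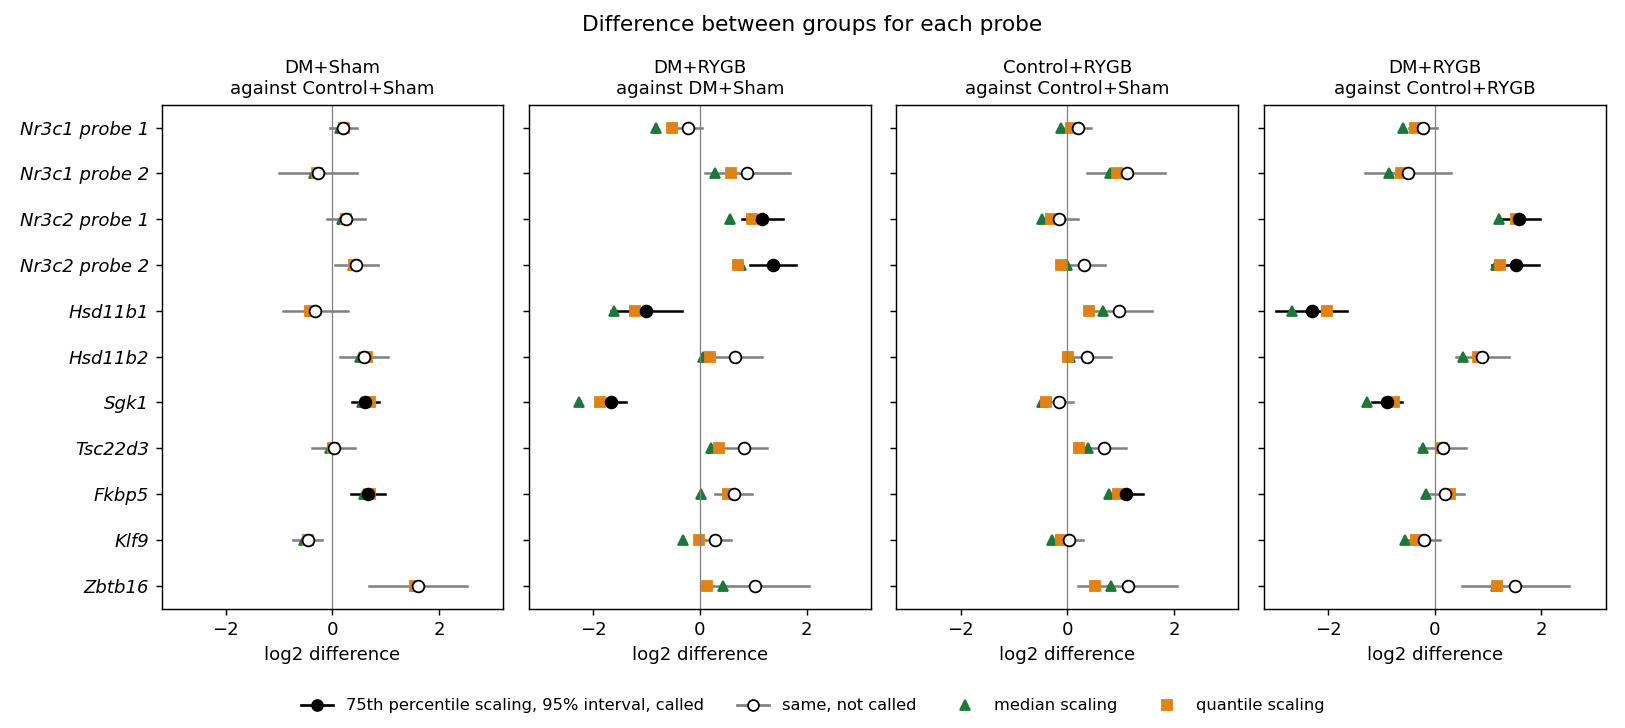
Log2 difference of each probe (rows) in 4 comparisons (panels), the first group minus the second. Circles and bars give 75th percentile scaling with its 95% interval, filled where called, and triangles and squares give median and quantile scaling. For DM+RYGB against DM+Sham, Nr3c2 lies right of 0 and Hsd11b1 and Sgk1 left of 0 under all 3 scalings, while Fkbp5, Tsc22d3 and Hsd11b2 lie close to 0 with median scaling.

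Among the 5 target genes, Sgk1 and Fkbp5 were the ones called. Sgk1 encodes a kinase that keeps the epithelial sodium channel at the cell surface and is induced by both receptors. It read 1.67 and 1.51 in DM+RYGB, 3.28, 3.23 and 3.23 in DM+Sham, 2.52, 2.44 and 2.44 in Control+RYGB and 2.72, 2.66 and 2.54 in Control+Sham. No 2 groups overlapped: DM+Sham was highest, Control+Sham and Control+RYGB lay next to each other, and DM+RYGB was lowest.

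Sgk1 rose by 0.62 in DM+Sham against Control+Sham (1.54-fold, SE 0.11, adjusted p = 0.012). It fell by 1.67 in DM+RYGB against DM+Sham (3.18-fold, SE 0.12, adjusted p = 0.00038) and by 0.89 against Control+RYGB (1.86-fold, SE 0.12, adjusted p = 0.0024). In Control+RYGB against Control+Sham it differed by -0.16 (95% interval -0.41 to 0.10), and by -0.47 with median and -0.40 with quantile scaling (adjusted p = 0.039 and 0.032), so it was not called. The interaction was -1.51 (SE 0.16, adjusted p = 0.0019). Within scan days, Sgk1 differed by 0.62 and 0.69 between DM+Sham and Control+Sham, by -1.56 between DM+RYGB and DM+Sham, and by -0.86 and -0.93 between DM+RYGB and Control+RYGB. The fall against DM+Sham was called in all 9 fits that left out 1 sample (-1.75 to -1.59) and under all 13 other alternatives. The rise in DM+Sham was called in 2 of 9 such fits, with differences of 0.57 to 0.66: it was lost when any 1 sample of Control+Sham, DM+Sham or Control+RYGB was left out, and also with normexp, with scan day as a block and in a fit of only the 2 groups. The fall against Control+RYGB was lost in a fit of only those 2 groups.

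Fkbp5 encodes a co-chaperone that lowers the affinity of the glucocorticoid receptor for its hormone and is induced by that receptor. It read 1.76 and 1.74 in DM+RYGB, 1.31, 0.93 and 0.92 in DM+Sham, 1.61, 1.46 and 1.53 in Control+RYGB and 0.47, 0.43 and 0.47 in Control+Sham. The 3 Control+Sham arrays were lowest and no 2 groups overlapped.

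Fkbp5 rose by 0.66 in DM+Sham against Control+Sham (1.58-fold, SE 0.13, adjusted p = 0.019) and by 1.1 in Control+RYGB against Control+Sham (2.14-fold, SE 0.13, adjusted p = 0.0042). Between DM+RYGB and DM+Sham it differed by 0.63 (SE 0.15, adjusted p = 0.012), which was not called, since median scaling gave 0.03 (adjusted p = 0.86). Between DM+RYGB and Control+RYGB it differed by 0.20 (95% interval -0.15 to 0.54). Within scan days, Fkbp5 differed by 0.89 and 0.46 between DM+Sham and Control+Sham. The rise in DM+Sham was lost without Control+Sham 1, without Control+Sham 2 and without either DM+Sham sample (0.47 without DM+Sham 1). The rise in Control+RYGB was lost without Control+RYGB 1 (1.04) and without the averaged arrays 2 and 3 of that group (1.16). Both rises were also lost with normexp and with scan day as a block.

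The other 3 targets were not called in any comparison. Tsc22d3, whose leucine zipper protein carries anti-inflammatory effects of glucocorticoids and is also known as an aldosterone-induced gene of the collecting duct, read 4.30 and 3.87 in DM+RYGB, 3.32, 3.21 and 3.21 in DM+Sham, 4.03, 3.80 and 3.87 in Control+RYGB and 3.40, 3.25 and 3.07 in Control+Sham. Both RYGB groups stood above both sham groups with the 75th percentile, but with median scaling DM+RYGB (7.04 to 7.41) overlapped Control+Sham (6.82 to 7.24). With the 75th percentile, Tsc22d3 differed by 0.82 in DM+RYGB against DM+Sham (adjusted p = 0.011) and by 0.69 in Control+RYGB against Control+Sham (adjusted p = 0.029). Median scaling gave 0.22 and 0.38 and quantile scaling 0.36 and 0.22, none with an adjusted p under 0.05.

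Klf9, a transcription factor induced by glucocorticoids, read -1.34 and -1.45 in DM+RYGB, -1.75, -1.63 and -1.62 in DM+Sham, -1.14, -1.27 and -1.26 in Control+RYGB and -1.12, -1.20 and -1.35 in Control+Sham. The DM+Sham arrays were lowest, and the difference of -0.46 from Control+Sham (SE 0.11, adjusted p = 0.036) was not called because median scaling gave an adjusted p of 0.051. Zbtb16, a zinc finger repressor used as a marker of glucocorticoid action, was the dimmest of the 11 probes, with 13.58 to 134.3 intensity units. It read -5.06 and -3.58 in DM+RYGB, -5.33, -5.36 and -5.40 in DM+Sham, -5.84, -5.82 and -5.82 in Control+RYGB and -6.90, -6.83 and -7.17 in Control+Sham. All arrays of the other groups were above the Control+Sham arrays, and the 2 DM+RYGB arrays differed from each other by more than any other pair of 1 group.

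Zbtb16 was 1.61 higher in DM+Sham than in Control+Sham (SE 0.39, adjusted p = 0.034), with an adjusted p of 0.071 under quantile scaling, and so was not called. DM+RYGB 2, its brightest array, was also the array with heart and skeletal muscle markers. The summed level of the 9 muscle markers was -0.09 to 8.33 in DM+RYGB, with 8.33 on DM+RYGB 2, -0.91 to -0.87 in DM+Sham, -1.04 to -0.37 in Control+RYGB and -1.35 to -1.27 in Control+Sham. Their part in the Zbtb16 value was not tested. Within scan days, Zbtb16 differed by 0.34 between DM+RYGB 1 and a DM+Sham array, and by 0.79 and 2.24 between DM+RYGB and Control+RYGB, the larger value being that of DM+RYGB 2.

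**Figure D3:**
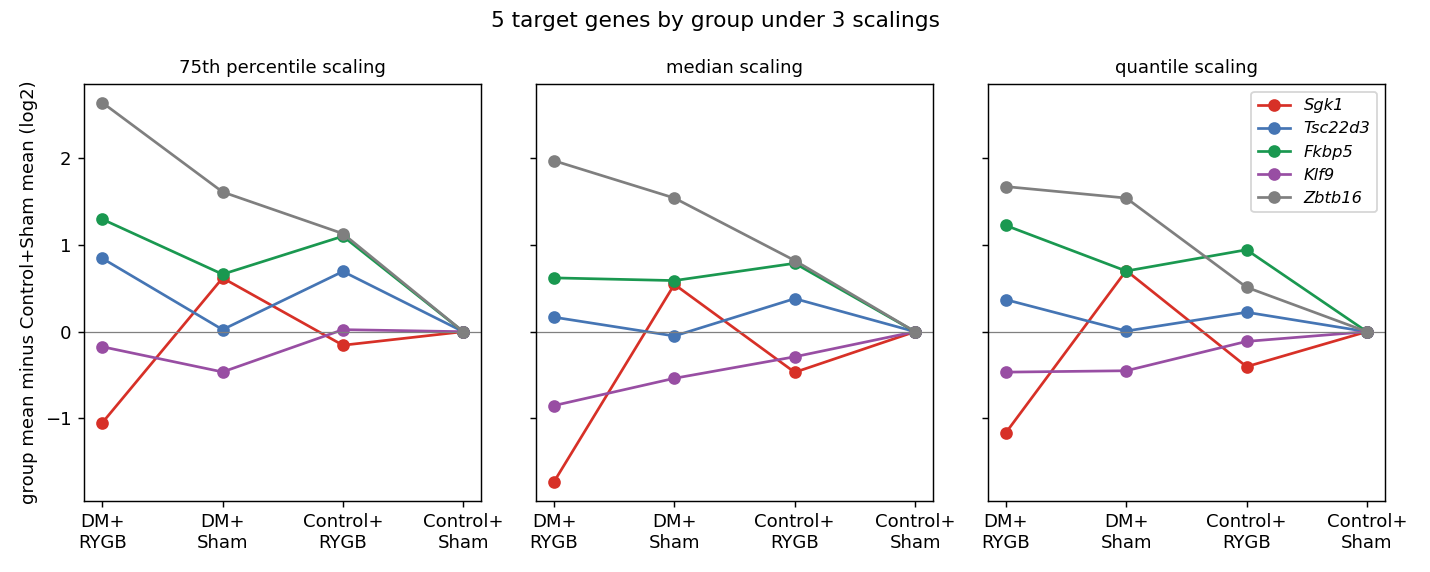
Mean of each of 5 target genes in each group minus its mean in Control+Sham (log2, vertical axis), with 75th percentile, median and quantile scaling (panels). Lines only join the points of 1 gene. Sgk1 lies lowest in DM+RYGB and above 0 in DM+Sham under every scaling, whereas Fkbp5 and Zbtb16 lie above 0 in all 3 groups. Klf9 lies below 0 in both diabetic groups under every scaling, and in Control+RYGB too with median and quantile scaling.

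The 5 targets did not move together. The group means of DM+RYGB and Control+Sham differed by -1.05 for Sgk1, 0.85 for Tsc22d3, 1.3 for Fkbp5, -0.17 for Klf9 and 2.64 for Zbtb16, and with median scaling by -1.73, 0.17, 0.62, -0.85 and 1.97, values that were not tested. Comparing DM+RYGB with DM+Sham, 4 of the 5 differences were above 0 with the 75th percentile and 3 with median scaling, Sgk1 being below 0 in both, and the median of the 5 was 0.63 beside 0.55 for all probes. Comparing DM+Sham with Control+Sham, 4 of 5 were above 0 (3 with median scaling), the median was 0.62 beside 0.03 for all probes, and 2 were called. Comparing Control+RYGB with Control+Sham, 4 of 5 were above 0 with the 75th percentile and 3 with median scaling, the median was 0.69 beside 0.29 for all probes, and 1 was called. Comparing DM+RYGB with Control+RYGB, 3 of 5 were above 0 with the 75th percentile and 1 with median scaling, and the median was 0.15 beside 0.27 for all probes. These comparisons share groups and are not independent of one another.

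Fkbp5 and Tsc22d3 were the 2 targets whose values ran closest over the 9 samples. After each gene was centred on its own mean, they differed by 0.24 on average, and 452 of 12220 named genes above background on every array ran closer to Fkbp5 than Tsc22d3 did. From the other side, 1154 genes ran closer to Tsc22d3 than Fkbp5 did. Sgk1 differed by 0.88 on average from Fkbp5, with 11491 genes closer to Fkbp5, and by 0.80 from Tsc22d3. Zbtb16 differed by 0.56 from Fkbp5. Nr3c2 and Hsd11b2 differed by 0.25 on average, with 604 genes closer to Nr3c2 and 1185 closer to Hsd11b2. All of these distances rest on the same arrays and the same scaling, and they describe these samples only.

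The promoters of Fkbp5 and Tsc22d3, which ran closest, and of Sgk1, which ran apart from them, were searched for the DNA element that both receptors bind. RefSeq windows (GRCr8 assembly, 250 bases before to 50 bases after a start) were found for 5 of the 9 genes, 10 windows in all, since some genes have several starts. The 250 bases before 1 start of each of the 3 genes are printed 5′ to 3′ in the direction of the gene: chr20:6543556-6543805 for Fkbp5, chrX:109065431-109065680 for the Tsc22d3 start that held a match and chr1:24804832-24805081 for Sgk1, all on the minus strand. Capitals mark a match to ACANNNTGT, the core of the element with any base in its middle.
Fkbp5: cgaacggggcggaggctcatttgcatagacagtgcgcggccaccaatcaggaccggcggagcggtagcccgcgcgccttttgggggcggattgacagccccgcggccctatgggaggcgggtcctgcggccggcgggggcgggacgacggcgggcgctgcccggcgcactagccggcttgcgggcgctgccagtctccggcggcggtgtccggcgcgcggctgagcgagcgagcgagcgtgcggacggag
Tsc22d3: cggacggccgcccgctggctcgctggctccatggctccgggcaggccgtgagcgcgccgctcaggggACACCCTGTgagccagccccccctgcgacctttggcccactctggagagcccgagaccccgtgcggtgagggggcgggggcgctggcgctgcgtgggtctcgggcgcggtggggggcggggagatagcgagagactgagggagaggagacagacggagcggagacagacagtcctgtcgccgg
Sgk1: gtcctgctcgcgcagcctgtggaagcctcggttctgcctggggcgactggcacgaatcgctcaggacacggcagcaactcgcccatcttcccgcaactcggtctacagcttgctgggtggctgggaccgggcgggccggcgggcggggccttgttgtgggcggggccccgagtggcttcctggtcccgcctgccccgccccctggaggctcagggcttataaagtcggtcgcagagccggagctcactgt
The short site AGAACA, or TGTTCT on the other strand, was in 0 of the 10 windows and in 20.7% of 33469 RefSeq windows of rat genes. ACANNNTGT, which reads the same on both strands, was in 1 of the 10 windows, at 183 bases before the Tsc22d3 start, and in 6.86% of all windows. Of all windows, 0.0149% held AGAACA and TGTTCT spaced by 3 bases, a match that contains ACANNNTGT. No match says only that these letters are not in this window.

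For each gene, the 3 named genes whose centred values lay nearest over the 9 samples were taken from the same 12220 genes. Nearest to Sgk1 were the bile acid transporter Slc10a1 (mean difference 0.10), Sec14l2 (0.11) and Zg16b (0.11). Nearest to Hsd11b1 were the sulfotransferase Sult1c2a (0.12), the export pump Abcc4 (0.15) and Spink1l (0.15). Nearest to Nr3c2 were Rab3d (0.05), Eml2 (0.06) and the metalloproteinase Mmp23 (0.07). Nearest to Fkbp5 were Spry2, an inhibitor of growth factor signalling (0.07), Or4c103 (0.08) and Iba57 (0.09). For the rest the nearest genes were Nptn for Nr3c1 (0.04), Pcdh9 for Hsd11b2 (0.08), Cfap36 for Tsc22d3 (0.06), Fam136a for Klf9 (0.05) and H19 for Zbtb16 (0.18). The mean deviation from the gene's own mean was 0.10 for Nr3c1 and 0.83 for Zbtb16.

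Genes of sodium and potassium handling that answer to mineralocorticoids were read beside Sgk1 and Nr3c2, with 1 probe per gene and 20 of 22 listed genes measured. In DM+Sham against Control+Sham, 3 rose and 1 fell, beside 6.32% and 7.64% of 14358 named genes. The rises were in 2 subunits of the epithelial sodium channel, Scnn1a (1.18, SE 0.16) and Scnn1b (0.85, SE 0.16), and in the ubiquitin protease Usp2 (1.08, SE 0.14), and the fall was in the endothelin gene Edn1 (-0.34, SE 0.09). In DM+RYGB against DM+Sham, where Sgk1 fell and Nr3c2 rose, 1 rose and 0 fell (limma, all scalings), beside 7.07% and 14.1%. It was Slc26a4, the chloride-bicarbonate exchanger pendrin (1.49, SE 0.17). The list's median difference was 0.64 with the 75th percentile and 0.03 with median scaling, beside 0.38 for all named genes with the 75th percentile.

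In DM+RYGB against Control+RYGB, 7 of the 20 rose and 0 fell, beside 7.62% and 13.0% of named genes. They were Slc26a4 (1.95, SE 0.17), the channel subunits Scnn1g (1.83, SE 0.19) and Scnn1b (1.44, SE 0.18), the kinase Stk39 that activates sodium-chloride transport (1.36, SE 0.15), the potassium channel Kcnj1 (1.60), the sodium-chloride cotransporter Slc12a3 (1.29) and Ndrg2 (1.86). Scnn1b, Scnn1g, Kcnj1, Slc12a3 and Slc26a4 are also in the marker lists of the distal tubule and collecting duct. In Control+RYGB against Control+Sham, 3 rose and 1 fell, beside 4.94% and 6.67%. The rises were in Cnksr3 (1.14, with 0.22 on its other probe), a scaffold of sodium channel regulation, in the kinase Oxsr1 (0.82) and in the potassium channel Kcnma1 (1.90, with 0.52 and 0.73 on its other probes), and Stk39 differed by -0.87.

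Of 37 other genes known to answer to glucocorticoids, 36 were measured. In DM+Sham against Control+Sham, 3 rose and 8 fell, beside 6.32% and 7.64% of named genes: the repressor Bcl6 differed by -2.77 (SE 0.09) and the stress gene Gadd45b by -2.10 (SE 0.12), while the clock gene Per2 rose by 1.36 (SE 0.11) and the lipoprotein lipase inhibitor Angptl4 by 1.31 (SE 0.14). Between DM+RYGB and DM+Sham, 0 rose and 4 fell by limma with all scalings, beside 7.07% and 14.1%. The falls were in Angptl4 (-2.86, SE 0.15), the metallothionein Mt1 (-0.97, SE 0.21), the thyroid hormone deiodinase Dio1 (-0.72) and Igfbp1 (-0.52). Before median and quantile scaling were also required, further genes of the list were higher at a limma adjusted p under 0.05. Among these were Il1r2 (1.52, SE 0.20, adjusted p = 0.0019) and Nfkbia (1.02, SE 0.12, adjusted p = 0.0013). Between DM+RYGB and Control+RYGB, 1 rose and 11 fell, beside 7.62% and 13.0%, among them Angptl4 (-2.38), the growth factor binding protein Igfbp1 (-2.41) and Bcl6 (-1.13), and the rise was in the cell cycle inhibitor Cdkn1c (1.60). In all 3 comparisons more named genes overall were called lower than higher. The median of the list was -0.12, 0.29 and -0.06 in these comparisons, beside 0.03, 0.38 and 0.20 for all named genes. With median scaling the median of the list was -0.20, -0.31 and -0.42, so its sign between DM+RYGB and DM+Sham depended on the scaling.

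In Control+RYGB against Control+Sham, 5 of these 36 rose and 4 fell, beside 4.94% and 6.67% of named genes. Tat, the tyrosine aminotransferase used as a standard glucocorticoid target in liver, was detected above background on all 3 Control+RYGB arrays, against 0 of 3 for Control+Sham. It was also above background on 1 DM+RYGB and 1 DM+Sham array. Tat was at least 12.6-fold higher in Control+RYGB than in Control+Sham. The limma adjusted p = 0.00019 belongs to the unbounded difference of 5.08, and the bound itself was not tested. The bound sets the mean Control+RYGB value against the higher of Tat's own signal and the lowest signal of any probe above background on each Control+Sham array. Ugt2b1 and Akr1d1, from the steroid list below, were likewise above background on 3 Control+RYGB arrays and 0 Control+Sham arrays. No list of liver markers was read, so whether Tat rose with other liver genes was not tested. Per2 rose by 0.87 (SE 0.11), the gluconeogenic enzyme Pck1 by 1.54 (SE 0.27) and glutamine synthetase Glul by 1.51 (SE 0.29), while Bcl6 differed by -1.38 (SE 0.09) and Gadd45b by -0.77 (SE 0.12). In the interaction, 3 of the 36 were higher and 5 lower, beside 6.54% and 10.2% of named genes, with Angptl4 at -3.69 (SE 0.20) and Bcl6 at 1.64 (SE 0.14).

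Among 16 of 18 measured genes of steroid supply and breakdown, H6pd, whose enzyme makes the cofactor that Hsd11b1 needs, differed by -1.13 in DM+RYGB against DM+Sham (SE 0.13, adjusted p = 0.0013) and by -0.60 against Control+RYGB (SE 0.13), with -0.34 and -0.19 on its other probe. The export pump Abcb1b, which carries glucocorticoids out of cells, rose by 1.66 in DM+Sham against Control+Sham (SE 0.11, 2.91 on its other probe) and differed by -2.80 in DM+RYGB against DM+Sham (SE 0.12, -4.43 on its other probe), the same directions as Sgk1. Over the list, 2 rose and 3 fell in DM+Sham against Control+Sham (6.32% and 7.64% of named genes) and 2 rose and 3 fell in DM+RYGB against DM+Sham (7.07% and 14.1%), in both cases with Akr1d1, which was below background in both groups, among them. In Control+RYGB against Control+Sham 5 rose and 0 fell, beside 4.94% and 6.67%, with 3 members of the Cyp3a family of steroid hydroxylases among them: Cyp3a2 by 5.36 (SE 0.15), Cyp3a23-3a1 by 3.39 (detected on 1 of the 3 Control+Sham arrays) and Cyp3a18 by 2.85 (SE 0.26). The others were Ugt2b1 and Akr1d1, at least 7.33-fold and 2.22-fold higher by the bound used for Tat. Against Control+RYGB, 1 rose and 9 fell in DM+RYGB, beside 7.62% and 13.0%, with Cyp3a2 at -4.05 (SE 0.17) and Cyp3a18 at -1.87 (SE 0.29). Ugt2b1 and Akr1d1 were among the 9. Both were above background on 3 Control+RYGB arrays and on 0 arrays of each other group, so they passed the filter only through Control+RYGB. The filter therefore largely set their direction in comparisons with Control+RYGB. Near-identical Cyp3a genes can share probe signal.

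Of the receptor chaperones and cofactors, 18 of 24 were measured, a list that also holds Nr3c1 and Nr3c2. By limma with all scalings, 1 rose and 0 fell in DM+Sham against Control+Sham (6.32% and 7.64% of named genes), and 1 rose and 0 fell in DM+RYGB against DM+Sham (7.07% and 14.1%). There were 0 that rose and 2 that fell in Control+RYGB against Control+Sham (4.94% and 6.67%), and 1 rose and 3 fell in DM+RYGB against Control+RYGB (7.62% and 13.0%). The coactivator Ncoa2 rose by 0.59 in DM+Sham against Control+Sham (SE 0.11, adjusted p = 0.016), and the single rise in both comparisons of DM+RYGB was Nr3c2. The chaperone gene Hsp90aa1 differed by -0.80 in DM+RYGB against Control+RYGB (SE 0.15), with -0.92 and -0.99 on its other probes.

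Adrenal cortex, urothelium and muscle markers were read as signs of other tissue. The 9 adrenal cortex markers summed to -0.84 to -0.50 in DM+RYGB, -1.46 to -1.06 in DM+Sham, -0.65 to -0.49 in Control+RYGB and -1.15 to -0.77 in Control+Sham, and the aldosterone synthase gene Cyp11b2 was not above background on any DM+Sham or Control+Sham array. Urothelium markers summed to -1.22 to -0.84 in DM+RYGB, -2.18 to -2.12 in DM+Sham, -2.37 to -1.99 in Control+RYGB and 1.12 to 1.24 in Control+Sham, so the Control+Sham arrays, which serve as the base for Fkbp5 and Sgk1 above, held more of these markers than all others. Their part in those results was not tested. Leaving out DM+RYGB 2, the array with muscle markers, leaves 1 sample in that group, so only effect sizes are given here. Calls stated above for fits of this kind assume that the single sample varies like the others. Over the 9 fits that left out 1 sample, that fit among them, differences against DM+Sham kept their direction. They were 0.94 to 1.41 and 1.11 to 1.64 for Nr3c2 probes 1 and 2, -1.27 to -0.75 for Hsd11b1 and -1.75 to -1.59 for Sgk1. Against Control+RYGB they were 1.34 to 1.82, 1.25 to 1.78, -2.56 to -2.04 and -0.98 to -0.81 in the same order.

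**Figure D4:**
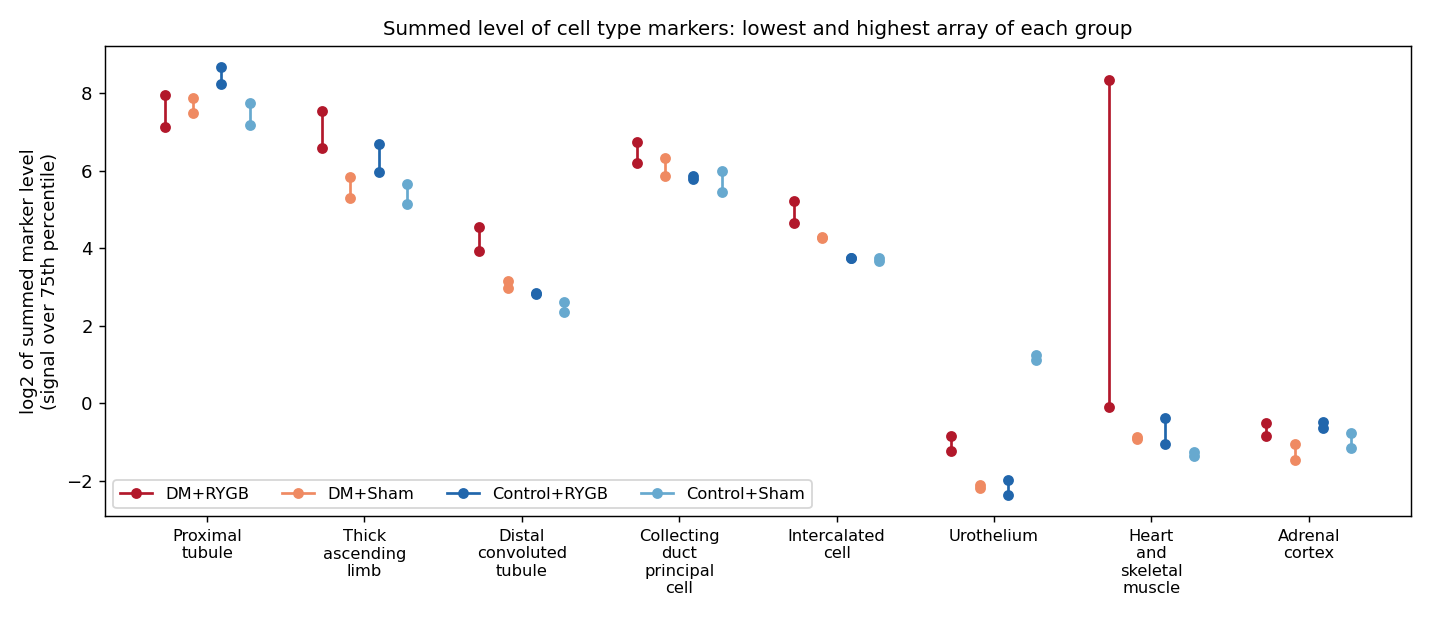
Log2 of the summed level of each marker list (signal over the array's 75th percentile, vertical axis) on the lowest and highest array of each group, joined by a line. Proximal tubule markers are highest in Control+RYGB, distal convoluted tubule and intercalated cell markers in DM+RYGB, urothelium markers in Control+Sham, and muscle markers reach 8.33 on 1 DM+RYGB array.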

How the data were processed

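Per the labels, total RNA of renal cortex was amplified, labelled with Cy3 and hybridised to Agilent rat oligonucleotide arrays. Per the file headers, the authors extracted each spot's intensity with Agilent Feature Extraction 11.0.1.1 (build rn4), which subtracts background and removes spatial trends, and leaves arrays unscaled against each other. A deposited table of log2 processed values shares 1 distribution in all columns (medians 7.07, correlation with log2 scanner values 0.9887 to 0.9969), and how it was made is not given in the sources used here. It served as an alternative.

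From 44254 spots, 1377 control spots were left out and spots of a probe averaged, leaving 30367 probes, 18005 of them with a gene symbol through RefSeq. Log2 signal minus the array's 75th percentile was fitted with limma 3.58.1 (R 4.3.3, lmFit and eBayes, 4 groups in 1 model, 5 residual degrees of freedom) over 28489 probes that exceeded background on 2 arrays or more, with Benjamini-Hochberg adjustment over all of them. The fit was tested on simulated data. The number of arrays limits the precision.

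The 9 genes, the gene lists and the markers were chosen with earlier results of these data known. For the lists, the probe with the highest mean signal stood for a gene, and the genes named are the members, up to 4 genes of a list with the smallest p in a comparison, and further called genes named to complete a count. Alternatives were background correction (normexp), scaling, the deposited values, the filter, 1 probe per gene, 11 separate arrays, blocks for replicate number, scan day and shared scan, only the groups compared, and each sample left out.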

Additional observations from a re-analysis of the deposited data

Results flagged for a closer look

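3 of the 11 probes showed an effect of RYGB that differed between diabetic and control rats by the test of the difference itself (limma's interaction term, called with all 3 scalings). The interaction was 1.33 for Nr3c2 probe 1 (SE 0.22, adjusted p = 0.0081): RYGB went with a difference of 1.17 in diabetic rats and of -0.16 in control rats. This call was lost with normexp, with scan day as a block and in 5 of 9 fits that left out 1 sample. For Hsd11b1 it was -1.98 (SE 0.38, adjusted p = 0.013), from -1.01 in diabetic rats and 0.98 in control rats, and the call was lost without Control+RYGB 1. For Sgk1 it was -1.51 (SE 0.16, adjusted p = 0.0019), from -1.67 in diabetic rats and -0.16 in control rats, called in all 9 such fits. Over all probes, 6.52% were called higher and 8.27% lower in the interaction.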

How the results depend on the processing

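The fall of Sgk1 and of Hsd11b1 in DM+RYGB against Control+RYGB, the rise of Nr3c2 there and the fall of Sgk1 against DM+Sham kept their call in all 9 fits that left out 1 sample. No called probe changed direction under any alternative run. Counts of called probes were less stable. For DM+Sham against Control+Sham (2), normexp background correction and scan day as a block gave 0, the 75th percentile alone, quantile scaling alone and the deposited table each gave 4, and 11 separate arrays and the shared scan as a block gave 6; leaving out 1 sample gave 0 to 5. For DM+RYGB against DM+Sham (4), normexp and scan day gave 2, the 75th percentile alone and the deposited table each gave 7, and only the groups compared gave 1; leaving out 1 sample gave 1 to 4. For Control+RYGB against Control+Sham (1), normexp and scan day gave 0, the 75th percentile alone and the shared scan 4, and median scaling alone, quantile scaling alone, the deposited table and 11 separate arrays 2; leaving out 1 sample gave 0 to 2. For DM+RYGB against Control+RYGB (4), only the groups compared gave 2. For the interaction (3), 11 separate arrays and the shared scan gave 5, and leaving out 1 sample gave 1 to 6. Leaving out 1 sample can leave a group with a single sample, which is then assumed to vary like the others. Of all 28489 probes, 3632 were called in DM+Sham against Control+Sham, beside 136 with normexp, 1856 with scan day, 4920 with the 75th percentile alone, 4773 with the deposited table and 8269 with the shared scan. In DM+RYGB against DM+Sham 5968 were called, beside 3093 with normexp, 4295 with scan day, 15038 with the 75th percentile alone, 11098 with the deposited table and 1790 with only the groups compared. Those in Control+RYGB against Control+Sham were 3454, beside 146 with normexp, 132 with scan day and 7650 with the 75th percentile alone. Calls in DM+RYGB against Control+RYGB were 4950, beside 1272 with only the groups compared. The interaction had 4213, beside 7213 with 11 separate arrays. The causes were not tested.

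The replicate numbers of the labels did not pair the arrays: of 15 pairs with the same number only 5 had deviations that correlated above 0.1 (-0.444 to 0.455). With the replicate number as a block and 11 arrays, the counts were 5, 4, 3 and 5 in the 4 comparisons in the order above, and 5 in the interaction.

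All 11 probes were well above background on every array, but normexp background correction ended calls of Sgk1, Fkbp5 and both Nr3c2 probes.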
